A study of Macaca mulatta with 45 samples.

Results

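The cell cycle genes described here are 44 genes that act from the start of DNA replication to the end of mitosis, chosen by symbol from a list. They had 63 of the 47231 probes used and are 44 of the 20046 genes with a probe of a single symbol. The RNA came from fat of adult male rhesus monkeys (Macaca mulatta) aged 7 to 13 years and was hybridised to human HT-12 V4 bead arrays. All animals ate commercial chow at baseline, when subcutaneous fat was sampled from the 4 animals later given the standard diet (SD), the 10 later given the high-fat, high-sugar diet (HFS) and the 10 later given HFS with resveratrol (Resv). SD drew 13% of its kcal from fat and held under 5% sucrose by weight, while HFS drew 42% from fat and held about 27% sucrose. Resveratrol, a polyphenol found in grapes, was given to the Resv animals on top of HFS, at 80 mg per day in year 1 and 480 mg per day in year 2. Animals without resveratrol received placebo treats, and the allocation was quasi-random. At 24 months there were 2 SD, 5 HFS and 4 Resv arrays of subcutaneous fat, and 2 SD, 4 HFS and 4 Resv arrays of visceral fat. Within a group each array came from a different animal.

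A dividing cell first loads the MCM helicase at replication origins, then raises its supply of deoxynucleotides and copies its DNA under cyclin E and cyclin A with CDK2. It enters mitosis under cyclin B with CDK1, driven by the transcription factor FOXM1, and separates its chromosomes under the Aurora kinases, PLK1 and the spindle checkpoint. CDC20 with the ubiquitin-conjugating enzyme UBE2C then turns on the anaphase-promoting complex, which ends mitosis by destroying cyclins. In most tissues the mitotic genes are transcribed together and largely in cells that divide. Mature adipocytes seldom divide, and the dividing cells of fat include precursors, macrophages and vascular cells. In a sample of whole fat, a larger number of dividing cells and more RNA in each cannot be told apart.

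Between 14386 and 18673 probes were detected per array, where detected means a deposited detection p under 0.05. Markers of adipocytes were present in both depots: CIDEC, FABP4 and PLIN1 were detected on all 45 arrays, although ADIPOQ was detected on 5. The mesothelial markers MSLN, ITLN1 and WT1, which mark the lining of visceral fat, were detected on all 10 visceral arrays. Others of that list were not: UPK1B and KRT8 were detected on 0 visceral arrays and KRT18 on 2. CALB2 was detected on all 45 arrays of both depots. The subcutaneous arrays fell into sets by their deposited decimals and brightness, with 19 arrays in set A, among them all of those from 24 months, and 16 baseline arrays in set B. The visceral arrays formed a set of their own, so depot and array set cannot be told apart. The number of arrays limits the precision of every value.

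Most of the cell cycle probes lay near the detection limit. A share of at least 0.5 of the arrays of some group was reached by 38 of the 44 genes and by 49 of their 63 probes, and 10 genes were detected on all 45 arrays. The licensing factors CDC6 and CDT1, the helicase factor CDC45, cyclin E2 (CCNE2), the ribonucleotide reductase subunit RRM2 and the proliferation marker MKI67 stayed under that limit. CDC6 was detected on 1 of 45 arrays and the other 5 on 0. These probes have only an upper bound set by the background of each array, and human probes on rhesus RNA can lose signal to sequence differences. The number of the 44 genes detected was 26 and 28 on the visceral SD arrays, 26, 27, 27 and 26 on the visceral HFS arrays, and 25, 35, 34 and 33 on the visceral Resv arrays, in the order of the replicates. In subcutaneous fat at 24 months it ranged from 19 to 35, and at baseline from 15 to 33, with group medians from 21.5 to 25.5. The visceral Resv group therefore held 3 of the arrays with many detected members and 1 with few.

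**Figure D1:**
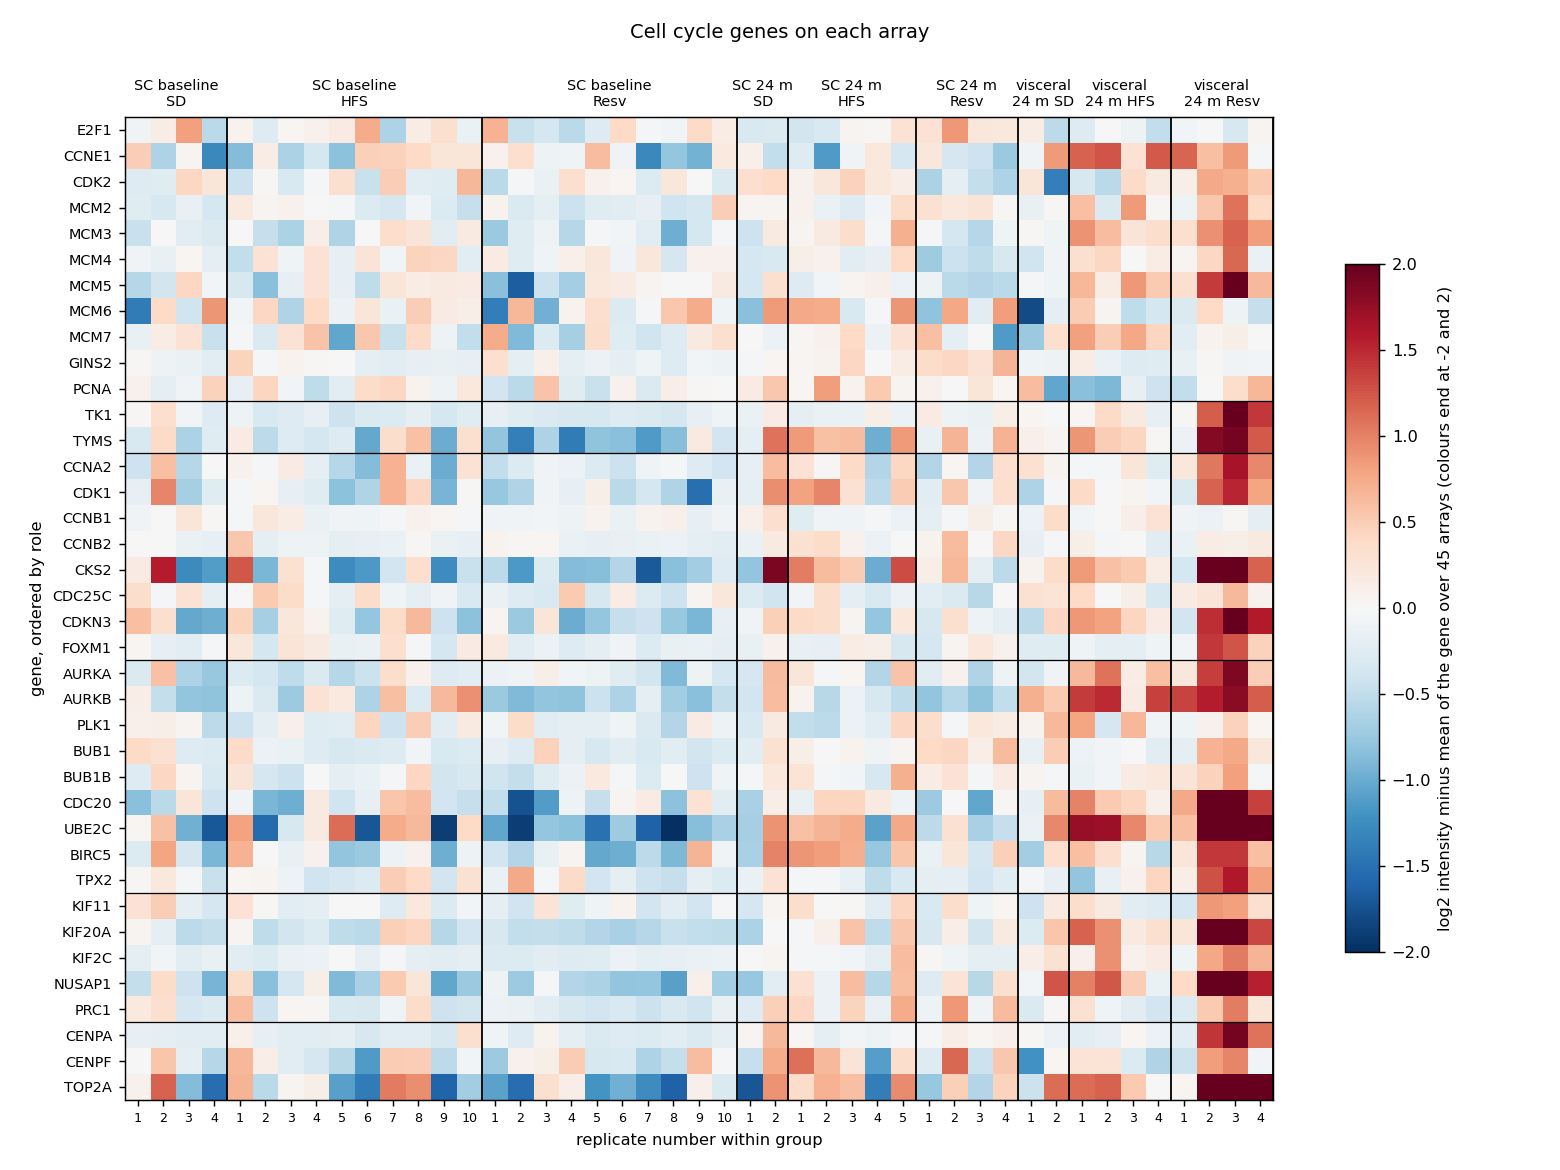
Log2 intensity of each of the 38 cell cycle genes that reached the detection filter (rows, ordered by role) on each of the 45 arrays (columns, by group and replicate), minus the mean of the gene over all arrays; colours end at -2 and 2. Replicates 2, 3 and 4 of visceral Resv are high in most rows, replicate 1 is not, and subcutaneous HFS replicate 4 at 24 months is low in the mitotic rows.

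Probes of the same gene did not always agree. MCM7 was read by a probe detected on all 45 arrays, while its other probes were detected on 0 and 1. PCNA, BIRC5 and UBE2C likewise rested on a single usable probe. Both CDK2 probes were detected on all 45 arrays, and in visceral fat of Resv against HFS animals the brighter differed by 0.60 ± 0.34 (log2 difference ± standard error) and the other by -0.44 ± 0.72. The MCM3 probes differed by 0.28 ± 0.24 and -0.38 ± 0.21. By contrast both NUSAP1 probes lay above 0, at 0.98 ± 0.49 and 1.24 ± 0.38. For each gene the brightest probe past the filter was used, levels are on the log2 scale of normalized intensity, and no level is compared between genes.

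In visceral fat the comparison of Resv with HFS asks what resveratrol changed under the same diet. After adjustment over all 11657 genes, 0 of the 36 cell cycle genes tested passed at an adjusted p under 0.05 by limma, and 0 genes of the whole table did (0%). At an unadjusted p under 0.05, 8 of 36 members passed, 7 of them higher with Resv, beside 23.7% of all genes. Of the 36, 31 lay above 0 with a median log2 difference of 0.53, while over all genes 42.1% lay above 0 and the median was -0.08. TK1, FOXM1, PRC1 and CENPA passed the detection filter of the visceral arrays only through the Resv group, where they were high, and CCNB1 only through SD. Without these 5 genes 27 of 31 lay above 0 with a median of 0.47. By role, the median over the 31 was 0.16 for 10 licensing and fork genes, 0.70 for 5 mitotic entry genes, 0.47 for 9 mitotic kinase and checkpoint genes and 0.60 for 4 spindle genes.

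Among the licensing and fork genes, MCM5, a subunit of the replicative helicase, measured 7.07, 6.56, 7.28 and 6.93 on the HFS arrays and 6.74, 7.80, 8.53 and 7.06 on the Resv arrays. The groups overlapped, with replicate 3 of Resv the highest. PCNA, the sliding clamp of the polymerase, measured 4.65, 4.58, 5.32 and 5.07 with HFS and 4.99, 5.47, 5.84 and 6.14 with Resv, again overlapping. MCM7, another helicase subunit, measured 12.01, 11.68, 11.96 and 11.63 with HFS and 10.96, 11.26, 11.30 and 11.21 with Resv. Every Resv array was below every HFS array for MCM7, as held in the lower direction for 7.72% of all genes. The log2 difference of MCM7 was -0.64 ± 0.22, with an adjusted p of 0.128 by limma. E2F1, CCNE1, MCM2, MCM4 and MCM6 lay between -0.35 and 0.18.

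Of the nucleotide genes, thymidylate synthase (TYMS), which makes dTMP, measured 7.71, 7.32, 7.26 and 6.86 with HFS and 6.71, 8.66, 8.75 and 8.05 with Resv. Thymidine kinase TK1, which salvages thymidine, measured 4.79, 5.14, 4.94 and 4.59 with HFS and 4.77, 5.96, 7.04 and 6.17 with Resv. In both genes Resv replicates 2, 3 and 4 were above all HFS arrays and replicate 1 was among or below them. The log2 difference of TYMS was 0.75 ± 0.41. TK1 was detected on 1 of 4 HFS arrays and 3 of 4 Resv arrays, so its fitted difference of 1.12 ± 0.37, with an adjusted p of 0.125 by limma, is largely a gap to background.

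Of the 7 mitotic entry genes tested, CCNA2, CDK1, CKS2, CDKN3 and FOXM1 had Resv replicates 2, 3 and 4 above all HFS arrays. CCNB1 did not, nor did CDC25C on the probe used. Dimmer probes of CDC25C were detected on 3 of 4 and 2 of 4 Resv arrays and on 0 of 4 HFS arrays. FOXM1 passed the filter only through Resv. The share of all genes with such a gap on these replicates was not counted. Cyclin A2 (CCNA2), which acts in S phase and at the start of mitosis, measured 6.87, 6.86, 7.13 and 6.65 with HFS and 7.12, 7.96, 8.54 and 7.86 with Resv. The log2 difference of CCNA2 was 0.99 ± 0.29, with an adjusted p of 0.105 by limma. The brighter FOXM1 probe was detected on 0 of 4 HFS arrays and 3 of 4 Resv arrays, a bound of at least 1.57-fold higher with Resv, with an adjusted p of 0.111 by limma. The other FOXM1 probe was detected on 1 of 4 and 2 of 4 arrays and differed by 0.15 ± 0.16. Levels of the brighter probe were 4.84, 4.72, 4.72 and 4.84 with HFS and 4.87, 6.34, 6.17 and 5.39 with Resv. CKS2, a small partner of CDK1, measured 8.95, 8.69, 8.64 and 8.26 with HFS and 7.75, 10.09, 11.03 and 9.29 with Resv, and CDK1 itself 6.78, 6.40, 6.45 and 6.34 against 6.11, 7.57, 7.92 and 7.18. Replicate 1 was the lowest of all 8 arrays for both genes. Cyclin B1 (CCNB1) was detected on 0 of 4 arrays in either group.

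Among the mitotic kinase and checkpoint genes, CDC20, the activator of the anaphase-promoting complex, measured 7.72, 7.24, 7.15 and 6.83 with HFS and 7.47, 8.94, 9.32 and 8.08 with Resv. UBE2C, its ubiquitin-conjugating enzyme, measured 8.25, 8.22, 7.47 and 7.04 with HFS and 7.11, 9.29, 9.90 and 8.80 with Resv. TPX2, which activates Aurora A on the spindle, measured 4.85, 5.49, 5.72 and 6.07 with HFS and 5.77, 6.91, 7.24 and 6.46 with Resv. For each of the 3 genes replicates 2, 3 and 4 were above all HFS arrays and replicate 1 fell among them. The log2 differences were 1.22 ± 0.39 for CDC20, 1.03 ± 0.54 for UBE2C and 1.06 ± 0.34 for TPX2, with an adjusted p of 0.118 by limma for CDC20 and for TPX2. The kinases themselves had values of 0.38 ± 0.36 for AURKA, 0.38 ± 0.31 for AURKB and -0.14 ± 0.27 for PLK1.

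Spindle and chromosome genes followed. KIF20A, a motor of the central spindle, measured 6.34, 6.09, 5.35 and 5.49 with HFS and 5.40, 7.20, 7.34 and 6.50 with Resv. TOP2A, the topoisomerase that untangles replicated DNA, measured 7.32, 7.40, 6.73 and 6.23 with HFS and 6.25, 8.44, 9.13 and 8.57 with Resv. CENPA, the histone variant of the centromere, measured 4.42, 4.48, 4.69 and 4.52 with HFS, where it was detected on 0 of 4 arrays, and 4.43, 6.07, 6.55 and 5.73 with Resv. In all 3 genes Resv replicate 1 lay near the low end of the HFS range and the other Resv arrays lay above that range. CENPA was at least 1.58-fold higher with Resv on the bound set by the dimmest detected probes, with an adjusted p of 0.109 by limma.

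**Figure D2:**
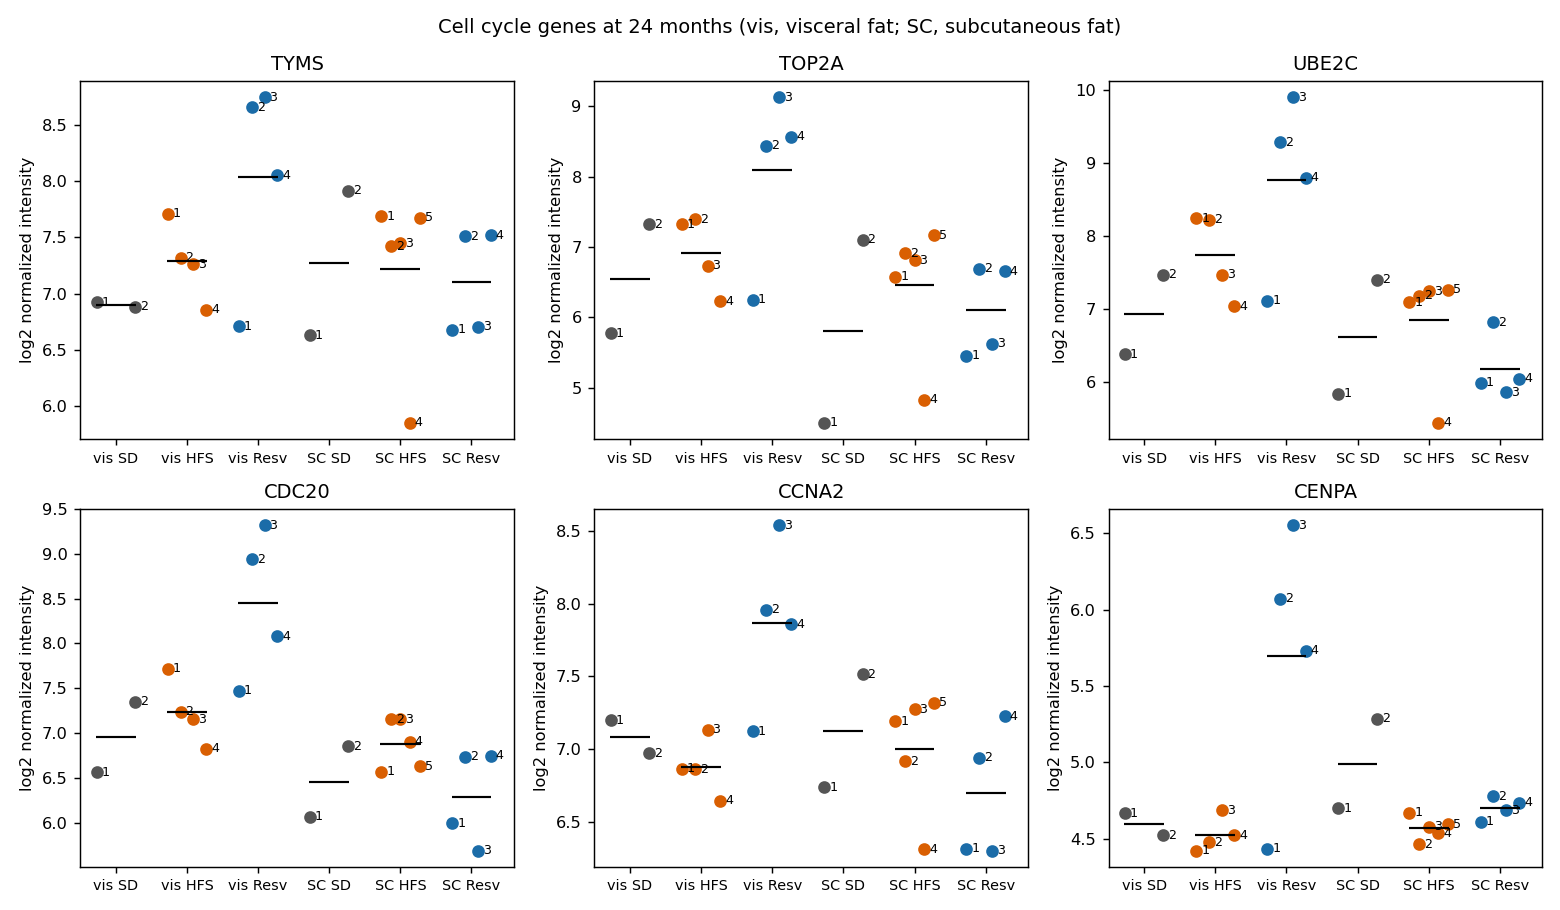
Log2 normalized intensity of TYMS, TOP2A, UBE2C, CDC20, CCNA2 and CENPA on every array from 24 months, by depot and diet; points are arrays with their replicate number and lines are group means. In visceral Resv replicates 2, 3 and 4 sit above all visceral HFS arrays for each of these genes and replicate 1 does not, and in subcutaneous HFS replicate 4 is the lowest of its group for TYMS, TOP2A, UBE2C and CCNA2.

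Replicate 1 of visceral Resv decided the counts. It was the lowest of the 4 Resv arrays for 28 of the 36 genes and exceeded every HFS array for 2, whereas replicates 2, 3 and 4 did so for 27, 30 and 18. These counts were not made over all genes, so they do not show whether the pattern is particular to the cell cycle genes. Across all genes of the visceral fit replicate 1 correlated with the other Resv arrays at Pearson r = 0.918 to 0.945. Those arrays correlated among themselves at 0.966 to 0.978. Replicate 1 correlated more closely with the HFS arrays, at 0.954 to 0.968. SD replicate 1 in turn correlated with Resv replicates 2, 3 and 4 at 0.959, 0.946 and 0.975, and with SD replicate 2 at 0.933. The arrays thus did not group by diet alone. Resv replicate 1 had 15153 detected probes, against 16839, 15901 and 16758 on replicates 2, 3 and 4 and 15039 to 15414 on the HFS arrays. SD replicates 1 and 2 had 16492 and 15339. Without replicate 1, 14 of 36 members passed, all higher with Resv, beside 13.2% of all genes in either direction and 8.49% higher. They were TK1, TYMS, CCNA2, CDK1, CKS2, CDKN3, FOXM1, BUB1, CDC20, UBE2C, TPX2, KIF20A, CENPA and TOP2A. The log2 difference without replicate 1 was 1.79 ± 0.41 for TOP2A, 1.58 ± 0.39 for UBE2C and 1.24 ± 0.24 for CCNA2, with adjusted p of 0.0243, 0.0308 and 0.0169 by limma. Replicate 1 is set apart here by its low values for these same genes, so the calls without it are no separate test of a rise. Leaving out 1 array at a time gave 0 to 14 members. TK1, FOXM1 and CENPA are among those that entered only through the Resv group, and 11 of the 14 are outside them. The licensing genes were not among the 14. With arrays weighted by their agreement with the fit, 19 members were higher and MCM7 was lower, beside 28.8% of all genes called. With all 45 arrays in a single fit, CCNA2, CDC20, CENPA, FOXM1, TK1 and TPX2 were higher, beside 6.1% of all genes.

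Macrophage markers were high on the same arrays, and markers of other cells were not all so. The summed intensity of 11 macrophage markers was 14863 to 19762 on the HFS arrays, 10664 on Resv replicate 1, and 33395, 38215 and 22816 on replicates 2, 3 and 4. Of 10 macrophage markers tested, 9 lay above 0 with a median log2 difference of 0.34, with CD68, CD163, CD14 and CSF1R detected on all arrays and MRC1 on 0 of the 10 visceral arrays. Of 8 smooth muscle and pericyte markers tested, 8 lay above 0 with a median of 0.91, but their sum was highest, at 49585, on replicate 1 and 22164 on replicate 3. The sum ranged from 18005 to 28221 with HFS, and RGS5 was detected on 0 visceral arrays. The sum of 9 fibroblast and precursor markers was 37466 to 49270 with HFS and 40831, 60371, 44548 and 54362 on Resv replicates 1 to 4, with 4 of 9 above 0 and a median log2 difference of -0.11. Endothelial markers summed to 10899 to 21980 with HFS and 16037 to 20415 with Resv, with 4 of 7 tested above 0, a median of 0.20 and ERG detected on 0 visceral arrays. Adipocyte markers lay below 0 for 9 of 9 tested with a median of -0.45, and T and NK cell markers for 8 of 8 with a median of -0.58. The adipocyte sum was 27545 to 30217 with HFS and 21493 to 32412 with Resv. The T and NK sum was 668 to 1399 with HFS and 519.7 to 853.6 with Resv, with CD3E and GZMB detected on no array. The part of these cells in the differences of the cell cycle genes was not tested.

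Other genes of the pathway were taken from fixed lists. Among 27 further proliferation genes tested, 23 lay above 0 with a median of 0.30, and 0 passed. CDCA5 (sororin), which holds sister chromatids together, differed by 1.37 ± 0.41 with an adjusted p of 0.107 by limma. Cyclin D genes went both ways. CCND3 differed by 0.86 ± 0.23 and CCND2 by -0.87 ± 0.25, with adjusted p of 0.102 and 0.105 by limma. In both the groups did not overlap, as held in the lower direction for 7.72% of all genes. Both genes were picked for their small unadjusted p. Of 18 further replication fork genes 3 lay above 0, with a median of -0.22, and the polymerase subunit POLD1 differed by 1.53 ± 0.42. Of 10 subunits of the anaphase-promoting complex 2 lay above 0, with a median of -0.40.

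Against the visceral SD arrays 0 of 36 members passed for HFS and 0 for Resv, beside 0.00858% of all genes in each comparison by limma. At an unadjusted p under 0.05 these were 1 and 16 members, beside 4.91% and 9.89% of all genes. Of the 36, 27 lay above 0 in HFS with a median of 0.30 and 34 in Resv with a median of 0.89. These counts include TK1, FOXM1, PRC1 and CENPA, which passed the filter only through Resv, and CCNB1, which did so only through SD. Without these 5 genes 24 of 31 lay above 0 in HFS with a median of 0.37, and 30 of 31 in Resv with a median of 0.87. The HFS arrays were all above the SD arrays for MCM3, MCM4, MCM5, MCM7 and AURKA, 5 of 36 members, as held for 6.49% of all genes. The Resv arrays were all above them for MCM3, MCM5, AURKA, AURKB, CDC20 and TPX2, 6 of 36, as held for 6.3%. FOXM1 was left out of both counts, since the probe used was not detected on every array of the higher group. The shares of all genes carry no such rule, and without it FOXM1 would count in both. MCM7 had SD values of 10.45 and 11.53, and the difference of HFS from SD was 0.83 ± 0.26 with an adjusted p of 0.901 by limma. Without SD replicate 1 it was 0.29 and without SD replicate 2 it was 1.37, with an adjusted p of 0.0636 for the latter. CDC20 in SD measured 6.56 and 7.35, below all Resv arrays, and the difference of Resv from SD was 1.50 ± 0.48 with an adjusted p of 0.468. The SD group has 2 arrays, and the comparisons with Resv share their arrays with those above.

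In subcutaneous fat at 24 months, of 37 members tested 0 passed for Resv against HFS, beside 2.23% of all genes, and 5 passed at an unadjusted p under 0.05, beside 13.3%. Of the 37, 13 lay above 0 with a median of -0.20, and over all genes the median was -0.04. CDK2, the kinase of S phase entry, measured 7.89, 8.02, 8.26, 8.01 and 7.93 with HFS and 7.16, 7.60, 7.32 and 7.17 with Resv. MCM4, a helicase subunit, measured 7.39, 7.36, 7.05, 7.10 and 7.67 with HFS and 6.56, 6.84, 6.76 and 6.95 with Resv. For both, every Resv array was below every HFS array, as held in that direction for 3.89% of all genes. The log2 differences were -0.71 ± 0.21 for CDK2 and -0.54 ± 0.19 for MCM4, with adjusted p of 0.0751 and 0.141 by limma. BUB1 was detected on 0 of 5 HFS arrays and 3 of 4 Resv arrays, a bound of at least 1.05-fold higher with Resv. With array set as a block, or in set A alone, CDK2 passed as lower, beside 4.71% and 2.96% of all genes. With array weights CDK2 and MCM4 did, beside 5.14%. Median scaling in place of quantile scaling turned both genes to values above 0, at 0.01 and 0.14, where the median of all genes also moved to 0.37. Against SD, 0 of 37 members passed for HFS, beside 0%, and 0 for Resv, beside 0.791%.

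The mitotic genes of subcutaneous HFS fat were uneven between animals. TOP2A measured 6.58, 6.91, 6.81, 4.83 and 7.16 on the 5 HFS arrays, and UBE2C 7.10, 7.18, 7.25, 5.44 and 7.27. TYMS measured 7.69, 7.42, 7.45, 5.85 and 7.67, and BIRC5 (survivin) of the chromosomal passenger complex 6.56, 6.51, 6.40, 4.91 and 6.24. Replicate 4 stood below the other 4 arrays in each, while it had 16251 detected probes, within the 15712 to 16322 of its group. Without it the median difference of Resv from HFS was -0.34 and 0 of 37 members passed. Genes named from the other pathway lists were picked from those called and do not describe the lists. CDK6, a cyclin D kinase, was higher with Resv by 0.92 ± 0.18, with an adjusted p of 0.00232 by limma. ECT2, which starts the cleavage furrow, was higher by 0.94 ± 0.19, with an adjusted p of 0.00403 by limma. Of the marker lists, 7 of 9 for fibroblasts and precursors lay above 0 with a median of 0.56, 5 of 10 for macrophages with a median of 0.06, and 3 of 8 for adipocytes with a median of -0.17. The number of detected probes was also higher with Resv, at 17117 to 18673, and the part of neither was tested.

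**Figure D3:**
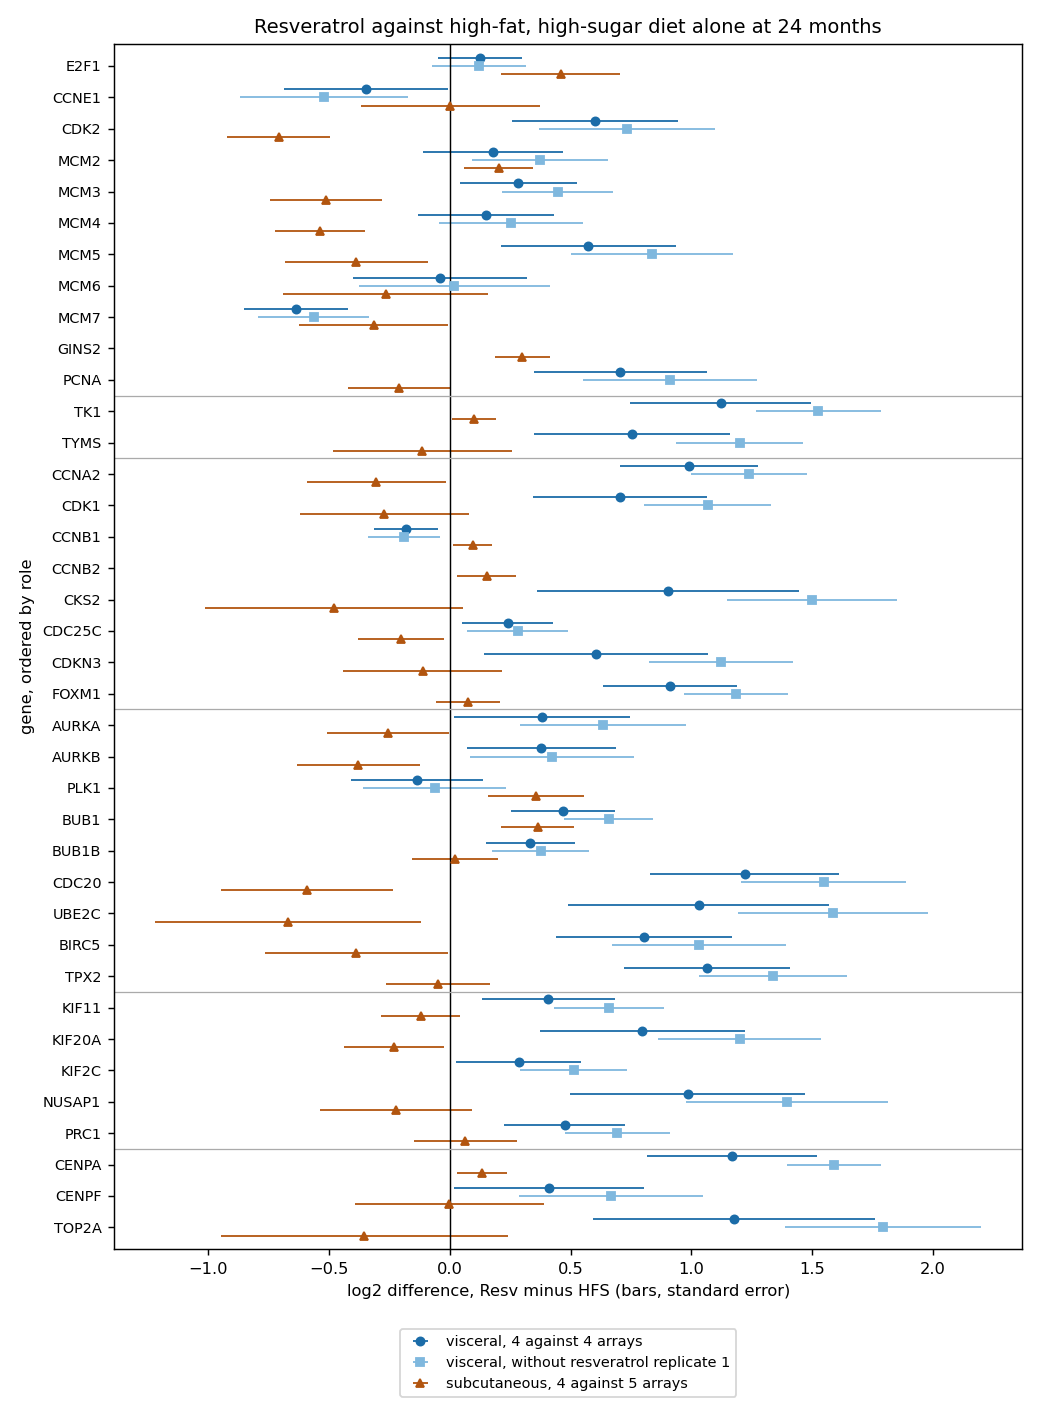
Log2 difference of Resv from HFS at 24 months for each cell cycle gene tested (rows, ordered by role), with standard errors as bars, in visceral fat with all arrays, in visceral fat without Resv replicate 1 and in subcutaneous fat. Visceral values lie mostly to the right of 0, with a median of 0.53, and subcutaneous values mostly to the left, with a median of -0.20.

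Whether the difference between Resv and HFS itself differed between the depots was tested as an interaction over all 45 arrays. Of 38 members 3 passed, all with a larger value in visceral fat, beside 2.7% of all genes in either direction and 1.05% in that direction. The difference of log2 differences was 1.31 ± 0.36 for CDK2, 1.02 ± 0.28 for TK1 and 1.03 ± 0.28 for CENPA, with adjusted p of 0.0356, 0.0376 and 0.0337 by limma. CENPA was detected on 3 of 4 visceral Resv arrays and on no array of the other 3 groups of this test, and TK1 on 3 of 4 visceral Resv, 1 of 4 visceral HFS, 2 of 4 subcutaneous Resv and 0 of 5 subcutaneous HFS arrays. Their fitted values are therefore largely gaps to background and not sizes of a change. Over the 38 members the median was 0.74 and 30 lay above 0, against a median of -0.02 over all genes, and 17 had an unadjusted p under 0.05, beside 18.7%. CDC20 had 1.81 ± 0.53 with an adjusted p of 0.0531, CCNA2 1.30 ± 0.41 with 0.0762 and TPX2 1.11 ± 0.36 with 0.0789. With the animal as a random block 5 members passed, beside 3.53% of all genes, the former 3 with CDC20 and FOXM1, whose adjusted p became 0.0499 and 0.0432. The replicate block gave the same 5, beside 3.76%. CDK2 rested on values in both depots, 7.48, 7.26, 8.17 and 7.97 in visceral HFS against 7.92, 8.55, 8.50 and 8.31 in visceral Resv, and its second probe had a value below 0 in visceral fat, as given above.

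The count of 3 rested on single arrays. Without visceral Resv replicate 1 it was 10, beside 7.18% of all genes. It was 0 without visceral Resv replicate 2, 3 or 4, without visceral HFS replicate 1, without subcutaneous HFS replicate 3 or 4, or without subcutaneous Resv replicate 4. It was 1 without visceral HFS replicate 2 or 4, or without subcutaneous Resv replicate 1, 2 or 3. With each of the 17 arrays left out in turn, the value of CDK2 stayed between 1.15 and 1.46. Picked from the called genes of the other pathway lists, PTTG1 (securin), which guards chromatid cohesion until anaphase, had 1.75 ± 0.44. CDK6 had -1.13 ± 0.26 and ECT2 -1.02 ± 0.26. The adjusted p of PTTG1, CDK6 and ECT2 were 0.025, 0.0138 and 0.0246 by limma.

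Visceral fat was compared with subcutaneous fat within each diet, in values that share the arrays above. In Resv animals 21 of 38 members passed, 20 higher in visceral fat and GINS2 of the replicative helicase lower, beside 35.8% of all genes in either direction and 20.1% higher. In HFS animals 3 of 38 passed, with cyclin E1 (CCNE1) and AURKB higher and PCNA lower, beside 18.7% of all genes. In SD animals 0 of 38 passed, beside 2.39%. The medians over the 38 members were 0.86, 0.10 and -0.09, and over all genes 0.06, 0.05 and 0.03.

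Of the 20 genes higher in visceral fat of Resv animals, 5 were licensing and fork genes, 1 a nucleotide gene, 4 mitotic entry genes, 5 mitotic kinase and checkpoint genes, 3 spindle genes and 2 chromosome genes. UBE2C measured 5.99, 6.82, 5.86 and 6.05 in subcutaneous Resv fat and CDC20 5.99, 6.73, 5.69 and 6.74, all below the visceral Resv arrays given above. The log2 difference was 2.60 ± 0.59 for UBE2C and 2.16 ± 0.39 for CDC20, with adjusted p of 0.000645 and 3.16e-05 by limma. AURKB, the kinase of the chromosomal passenger complex, measured 6.60, 6.81, 7.05 and 6.46 in visceral Resv fat and was detected on 0 of 4 subcutaneous Resv arrays. AURKB was at least 3.61-fold higher in visceral fat, with an adjusted p of 1.61e-07. The AURKB values of visceral HFS fat were 6.65, 6.73, 5.41 and 6.61, and those of subcutaneous HFS fat 5.31, 4.69, 5.13, 4.92 and 4.73, a log2 difference of 1.39 ± 0.27 with an adjusted p of 0.000216. The groups of AURKB did not overlap between depots in either diet, as held in that direction for 12.6% of all genes in HFS animals.

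MCM5 differed between the depots of Resv animals by 1.57 ± 0.33, MCM3 by 1.08 ± 0.24, CDK2 by 1.01 ± 0.26 and MCM4 by 0.86 ± 0.21, with every visceral array above every subcutaneous array. Such a gap was found for 12 of the 38 members, beside 19.3% of all genes. NUSAP1, which bundles spindle microtubules, differed by 1.69 ± 0.38 and KIF20A by 1.54 ± 0.29. TOP2A differed by 1.99 ± 0.64 with an adjusted p of 0.013 by limma, and its groups overlapped through visceral replicate 1. TK1 was higher by 1.22 ± 0.20, with its groups overlapping as well and 2 of 4 subcutaneous and 3 of 4 visceral arrays detected. CENPA and KIF2C, a microtubule depolymerase, were detected on 0 of 4 subcutaneous Resv arrays, and were at least 1.77-fold and 1.36-fold higher in visceral fat. GINS2 was detected on 0 of 4 visceral Resv arrays, was at least 1.02-fold lower there, and passed the filter only through the subcutaneous Resv group. Leaving out 1 array at a time gave 17 to 25 members, and 25 without visceral Resv replicate 1, beside 35.3% of all genes. In HFS animals CCNE1 measured 7.23, 7.30, 6.34 and 7.26 in visceral and 5.78, 4.91, 5.97, 6.25 and 5.70 in subcutaneous fat, a difference of 1.31 ± 0.37 with an adjusted p of 0.00978. PCNA differed there by -0.89 ± 0.25.

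**Figure D4:**
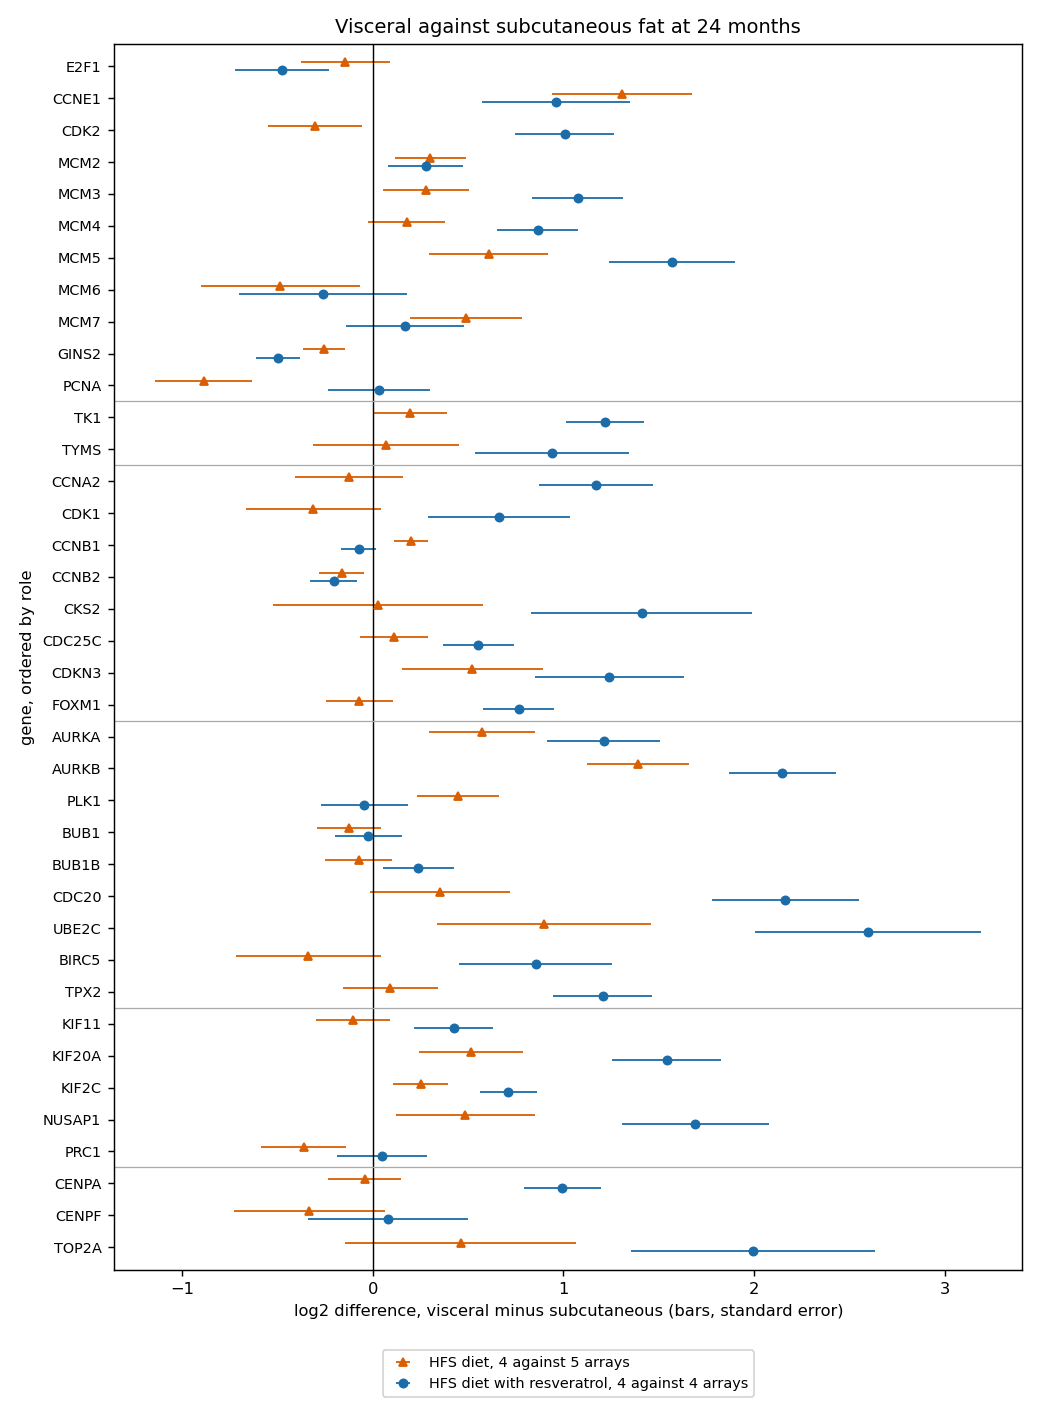
Log2 difference of visceral from subcutaneous fat at 24 months for each of the 38 cell cycle genes (rows, ordered by role), with standard errors as bars, in HFS and in Resv animals. Most values of Resv animals lie to the right of 0, with a median of 0.86, and those of HFS animals on both sides, with a median of 0.10.

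By animal names in the deposited columns, 4 animals had arrays of both depots at 24 months. In the Resv animal, which is visceral replicate 2 and subcutaneous replicate 2, 30 of 38 members were higher in visceral fat, with a median of 0.94. In the HFS animals these were 26 members with a median of 0.19 and 18 with a median of -0.03, and in the SD animal 20 with a median of 0.08. TOP2A was 8.44 in visceral and 6.69 in subcutaneous fat of the Resv animal.

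In the other cell cycle lists the genes called between the depots of Resv animals went both ways, beside the 35.8% of all genes called. Of 29 further proliferation genes 9 were higher and 2 lower in visceral fat, of 20 replication fork genes 4 and 4, of 11 anaphase-promoting complex genes 2 and 4, and of 5 cyclin D genes and kinases 1 and 2. UHRF1, which carries DNA methylation through replication, was higher by 2.07 ± 0.42 and POLD1 by 2.08 ± 0.44. CCND2 and the complex subunit ANAPC13 were lower, with differences of -2.16 ± 0.41 and -2.89 ± 0.38, with adjusted p of 6.69e-05 and 1.58e-07 by limma. Among the markers, 8 of 10 mesothelial genes lay above 0 with a median of 2.09, 7 of 9 fibroblast and precursor genes below 0 with a median of -1.39, and 8 of 10 macrophage genes above 0 with a median of 0.51. The mesothelial sum was 1133 to 3360 in visceral and 387.2 to 767.6 in subcutaneous Resv fat. Their part in the depot differences was not tested.

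Over time, subcutaneous fat was compared between 24 months and baseline within a diet. By animal names, all 11 animals with an array at 24 months also had one at baseline, and the main fit did not pair them. In Resv animals 7 of 37 members passed, with GINS2, TK1, TYMS, CCNB2, BUB1 and PRC1 higher and MCM4 lower at 24 months, beside 11.4% of all genes in either direction, 6.92% higher and 4.45% lower. GINS2 and CCNB2 passed the detection filter only through the Resv group at 24 months, where they were high, and 5 of the 7 are outside them. In HFS animals 0 passed, beside 1.01%, and in SD animals 0, beside 0%. The difference in change between Resv and HFS passed for 0 of the 37 members, beside 0.841% of all genes, and 4 had an unadjusted p under 0.05, beside 9.98%. The medians of the members were 0.27 in Resv, 0.20 in HFS and 0.13 in SD animals, and over all genes -0.05, -0.01 and 0.00.

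TYMS had a level of 7.10 ± 0.48 (SD, n = 4) at 24 months and 6.03 ± 0.47 (n = 10) at baseline in Resv animals. The log2 difference of TYMS between these groups was 1.07 ± 0.33, with an adjusted p of 0.0283 by limma. In the 4 animals with both arrays TYMS was higher at 24 months in 4, with a smaller median change of 0.57. Of the other genes called, GINS2, TK1 and PRC1 were higher in 4 of these 4 animals, BUB1 in 3, CCNB2 in 2 and MCM4 in 0. GINS2 and BUB1, a kinase of the spindle checkpoint, were each detected on 3 of 4 arrays at 24 months and 1 of 10 at baseline, with adjusted p of 0.00091 and 0.00369 by limma. With each baseline array at its own value or the lowest detected signal, whichever was higher, BUB1 was at least 1.02-fold higher at 24 months, and the bound of GINS2 gives no fold. PRC1, which crosslinks spindle microtubules, was detected on 0 of 10 baseline arrays and was at least 1.1-fold higher at 24 months. TK1 and CCNB2 were detected on 2 of 4 arrays at 24 months and 0 of 10 at baseline, and their bound gives no fold. MCM4 differed by -0.51 ± 0.16.

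These counts moved with the arrays. Of the 10 Resv baseline arrays 7 were in the brighter set B, and all 4 from 24 months in set A. With array set as a block 1 member passed, GINS2 with an adjusted p of 0.03 by limma, beside 5.25% of all genes. GINS2 entered the filter only through Resv at 24 months, where it was high, so this call is no separate support. In set A alone 0 passed, beside 1.83%, and TYMS had a value of 1.19 ± 0.42. With the number of detected probes as a covariate 0 passed, beside 1.06%. Without Resv replicate 2 at 24 months 3 passed and without replicate 4 there were 2. Picked from the pathway lists by the same rule, CCND2 was higher at 24 months by 1.35 ± 0.36, CDK6 by 1.12 ± 0.16 and ANAPC13 by 1.48 ± 0.33. Of 10 macrophage markers 10 lay above 0 with a median of 1.21 and 2 passed, and their part was not tested.

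At baseline the groups had eaten the same chow. Of 37 members 0 passed between the animals later given Resv and HFS, beside 0%, and 0 between those later given HFS and SD, beside 0.00824%. Of the 37, 35 were lower in the later Resv group, with a median of -0.12 against -0.01 over all genes, and 4 had an unadjusted p under 0.05, beside 2.37%. UBE2C ranged from 4.62 through a median of 6.80 to 7.63 in the later HFS group and from 4.49 through 5.57 to 5.87 in the later Resv group. AURKB ranged from 4.52 through 5.29 to 6.16 and from 4.35 through 4.53 to 5.05. The ranges overlapped for both. The differences were -1.03 ± 0.37 for UBE2C and -0.71 ± 0.17 for AURKB, with an adjusted p of 0.9998 by limma for both. In set A alone, with 3 arrays in each group, the values were -0.88 ± 0.57 and -0.44 ± 0.23.

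Across the 24 animals at baseline levels of several mitotic genes were correlated. TOP2A, taken as the reference after its values were seen, was set against each of the other 37 genes over 24 arrays with 100000 permutations of the animals. Of 37 relations 13 had an adjusted p under 0.05 by both Pearson and Spearman, all of them positive. Relations with TOP2A were not computed over all genes, so this count does not show whether they are particular to cell cycle genes. TOP2A was detected on 19 of the 24 arrays. Of the 13 genes 9 were detected on at least 12 arrays, and NUSAP1 was detected on 11, KIF20A and PRC1 on 4 and BUB1 on 3, so the values of these 4 lay largely at background. NUSAP1 had Pearson r = 0.859 and Spearman rho = 0.847, BIRC5 0.833 and 0.857, CENPF 0.801 and 0.779, CKS2 0.789 and 0.75, and UBE2C 0.742 and 0.772. The permutation p of NUSAP1 was 1e-05 for each, the smallest that these permutations can give, and 0.000123 and 0.000185 after adjustment over the 37. Without the 2 animals farthest from the TOP2A median, r was 0.804 for NUSAP1 and 0.68 for UBE2C. Within set A (8 animals) these were 0.736 and 0.882, and within set B (16 animals) 0.897 and 0.691. Of the 13, 12 kept r over 0.3 in both sets and without the 2 animals, and TPX2 did not, at -0.393 in set A.

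For the licensing genes 0 relations with TOP2A passed at baseline by both measures. Pearson r with TOP2A was 0.176 for MCM7, 0.096 for MCM5, -0.057 for MCM4, -0.146 for MCM6 and -0.092 for CDK2, with adjusted permutation p from 0.562 to 0.813. Within set A, MCM5 had r = 0.839. MCM3 had r = 0.426 with an adjusted p of 0.077. The number of detected probes had r = 0.129 with TOP2A and a permutation p of 0.548. The summed macrophage markers had r = -0.131 with a p of 0.541, at 0.639 in set A and -0.342 in set B.

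**Figure D5:**
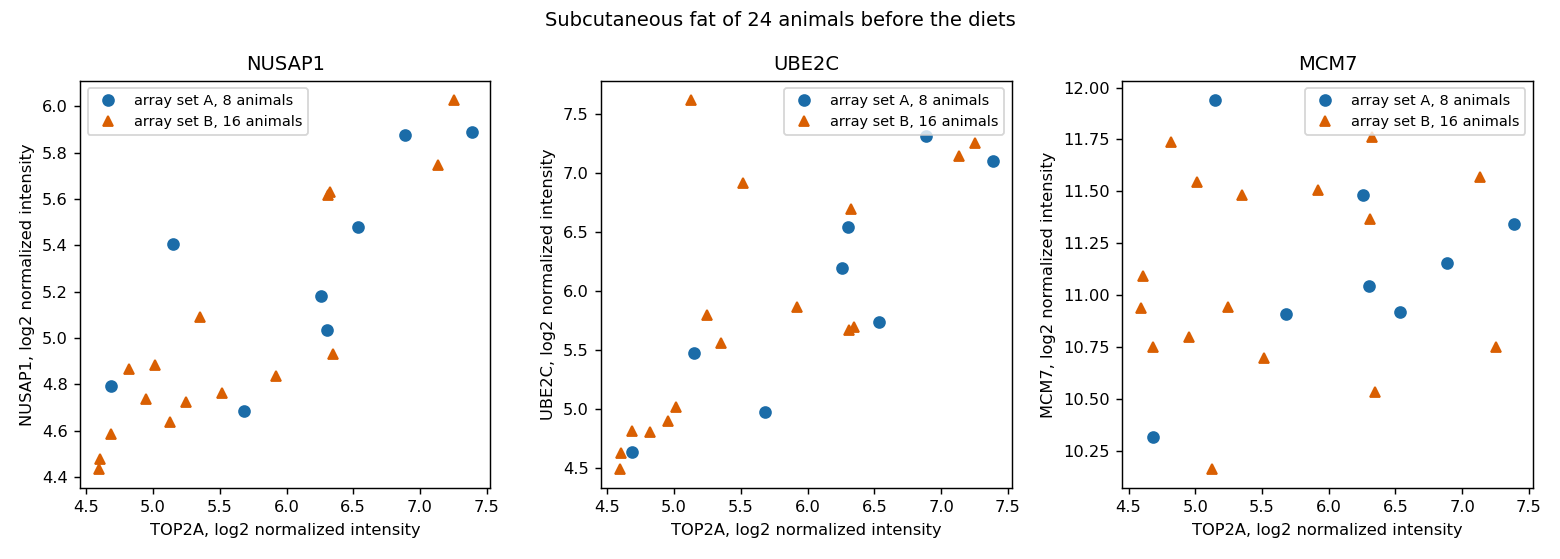
NUSAP1, UBE2C and MCM7 against TOP2A, all in log2 normalized intensity, in subcutaneous fat of the 24 animals before the diets; each point is an animal, marked by array set. NUSAP1 and UBE2C rise with TOP2A (Pearson r of 0.859 and 0.742), and MCM7 has an r of 0.176.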

How the data were processed

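Per the labels, RNA was labelled for Illumina bead arrays, and per the submitters' processing notes GenomeStudio 1.9.0 was used. The authors deposited an intensity for each probe and array, on a linear scale and not scaled between arrays, and, per the file headers, a p-value of detection beside each. A second deposited table holds a score, which equals the standardised natural log of the intensity to within 5e-10. Of 47323 probes 92 were empty on the subcutaneous arrays. Intensities of all 45 arrays were normalized with neqc (offset of 16) of limma 3.58.1 in R 4.3.3, and log2 values were computed from the deposited intensities.

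Probes were kept when detected on a share of at least 0.5 of the arrays of a group, with 1 probe a gene, the brightest. Visceral comparisons used 10 arrays (11657 genes), subcutaneous ones 35 (12130) and depot ones 45 (12917), with lmFit and eBayes with a variance trend, two-sided, and Benjamini-Hochberg adjustment over all genes in each of 16 comparisons. A fold bound sets the bright group against the lowest detected signal of each array of the dim group. The members and the lists were chosen with earlier results of these data known. All members could be named, and up to 4 called genes of the pathway lists a comparison, by size of change or else by smallest p. The fits were tested on simulated data. Alternatives changed the normalization, filter, threshold, probes, arrays, weights, covariates and blocks. Of 11 pairs of subcutaneous arrays with the same diet and number at baseline and 24 months, 9 came from the same animal, with residuals correlated at r = 0.0953 to 0.481, and the other 2, of different animals, at -0.332 and -0.0131; of 10 such pairs across depots 3 did. In the columns 25 animal names stand for 24 animals and were kept as spelled. No sequences were used here.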

Additional observations from a re-analysis of the deposited data

Results flagged for a closer look

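Of 266 sets of values of a member in a group of 4 to 10 arrays, 20 held an array whose gap to the others was above the critical value of Dixon's test, which chance exceeds in about 1 of 20 sets. In subcutaneous HFS fat at 24 months 7 sets did so, and 6 of them concerned replicate 4, which was low for TYMS (5.85), CDKN3 (4.76), UBE2C (5.44), BIRC5 (4.91) and TOP2A (4.83) and high for TK1 (4.87), where it was not detected. In the same group KIF2C was high on replicate 5 (5.33). In visceral HFS fat replicate 3 was low for CCNE1 (6.34) and AURKB (5.41), and replicate 2 was high for KIF2C (5.63).

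In subcutaneous Resv fat at 24 months E2F1 was high on replicate 2 (5.96) and MCM5 on replicate 1 (6.30). Among the baseline arrays of the later HFS group, replicate 1 was high for GINS2 (5.02), CCNB2 (5.05) and BUB1 (5.03). In the later Resv group CDK1 was low on replicate 9 (4.88), AURKA was low on replicate 8 (5.24), FOXM1 was high on replicate 1 (5.11) and BUB1 was high on replicate 3 (5.11). In the later SD group PLK1 was low on replicate 4 (4.66).

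The difference between Resv and HFS was larger in visceral than in subcutaneous fat by the interaction test for CDK2 (1.31), TK1 (1.02) and CENPA (1.03), in log2 units, with adjusted p of 0.0356, 0.0376 and 0.0337 by limma. CENPA was detected on no array of 3 of the 4 groups compared and TK1 on 0 of 5 subcutaneous HFS arrays, so their values are largely gaps to background. The calls of all 3 genes rest on single arrays.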

How the results depend on the processing

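Counts of members called are given by comparison. For visceral Resv against HFS the count of 0 became 1 with only the arrays of these groups, 20 with array weights and 6 with all 45 arrays in a fit, and leaving out 1 array gave 0 to 14; the single fit was chosen after seeing the data and gave 3 for visceral Resv against SD. For subcutaneous Resv against HFS at 24 months the count of 0 became 1 at an adjusted p under 0.1, without a filter, by probe, with the array set as a block and in set A alone, 2 with array weights and 3 with median scaling. For subcutaneous Resv over time the count of 7 became 12 with median scaling, 2 with detection on every array of a group, 13 by probe, 0 with detected probes as a covariate, 1 with the array set as a block and 0 in set A alone, and leaving out 1 array gave 2 to 6. The change over time between Resv and HFS gave 1 with median scaling and 1 without a filter in place of 0. Depot differences in HFS animals gave 5 with only those arrays and 5 with array weights in place of 3. The depot difference of Resv against HFS gave 7 at an adjusted p under 0.1, 1 with detection on every array of a group, 21 with array weights and 5 with detected probes as a covariate in place of 3, and leaving out 1 array gave 0 to 10. Without replicate 1 of the respective SD group at 24 months the count went from 0 to 1 for subcutaneous HFS against SD, for subcutaneous SD over time and, without the visceral array, for SD depots.

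The replicate block and the animal as a random block gave 5 in place of 3 for the depot difference of Resv against HFS, and changed no other count by over 1.5 times. Same-numbered arrays mostly share an animal over time, not across depots.

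Among members with an unadjusted p under 0.1, 10 values turned sign. With median scaling these were CDK2 (0.011), MCM3 (0.15) and MCM4 (0.14) in subcutaneous Resv against HFS, MCM3 in HFS over time (-0.10), and CDK2 (0.28) and MCM4 (0.40) in the change over time between Resv and HFS, where the deposited z scores gave MCM4 0.016. The others were PCNA in visceral Resv against HFS with detected probes as a covariate (-0.0053), GINS2 in HFS over time in set A (-0.032) and AURKB at baseline between HFS and SD in set A (-0.20). The cause was not tested, except that median scaling moved the median of all genes to 0.37 in the first of these comparisons. Each called member was recomputed under every alternative and counted once for each. Of these recomputed values, 589 kept their direction and side of the threshold and 93 kept their direction only.

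Signal limits the rest: 6 of 44 genes had no usable probe, several others lay near background, the SD groups at 24 months had 2 arrays, and depot cannot be told from array set.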
